A study of Mus musculus with 12 samples.

Results

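Aminoacyl-tRNA synthetases load each tRNA with its amino acid, the step that precedes every round of protein synthesis. The genes described here were 35 members of this family, 19 for cytosolic enzymes or subunits and 16 for mitochondrial enzymes, among 24600 gene names in the GC2 tables and 37637 in the spermatocyte tables. They were picked by gene name, with the suffix 2 marking the mitochondrial enzyme. The choice was made with earlier results of these data known, so counts over the members are descriptions only. Where a name stood on several rows, the row with the highest mean FPKM, fragments scaled to transcript length and library size, was used. All 35 were found in both kinds of sample.

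RNA sequencing was done on 12 mouse libraries in 4 groups of 3. GC2 cells, a cultured spermatocyte-derived line, were either control or PHB knockdown, and spermatocytes were either control or from a conditional Phb knock-out. The spermatocytes were enriched from digested seminiferous tubules by flow sorting with a Hoechst dye, which stains DNA. The sources used here do not give strain, age, the Cre driver of the knock-out, the means of knockdown or the number of GC2 clones. Nor do they tie libraries to animals or cultures, so each p-value reflects spread among libraries that may be purely technical.

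Cytosolic and mitochondrial protein synthesis use separate synthetases, nearly all encoded by separate nuclear genes. Gars and Kars are the exceptions, since each encodes both the cytosolic and the mitochondrial form of its enzyme. Many cytosolic synthetase genes are known targets of ATF4, the transcription factor of the integrated stress response, which mitochondrial damage and amino acid shortage can switch on. Prohibitin, the product of Phb, is a scaffold protein of the inner mitochondrial membrane.

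Phb was first read in each library. In GC2 cells it was 56.6, 54.0 and 52.4 FPKM in control and 22.7, 18.4 and 19.0 FPKM in knockdown, and fell by 1.40 on the log2(FPKM + 1) scale (SE 0.09, limma adjusted p = 0.00062). In spermatocytes it was 12.6, 13.4 and 13.9 FPKM in control and 11.8, 11.3 and 11.5 FPKM in knockout, a small fall (log2 change -0.18, SE 0.04, limma adjusted p = 0.0074). The groups did not overlap in either kind of sample, and the residual level in the knockout was close to that of its control.

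The labelled cell types were compared with marker genes. In the GC2 libraries 6 of 10 spermatocyte markers were named in the tables, their summed level was 0.06 to 0.12 FPKM in control and 0.15 to 5.00 FPKM in knockdown, and no library listed the synaptonemal complex genes Sycp1 or Sycp3 above 0.22 FPKM. Summed levels in GC2 control and knockdown were 356 to 372 and 252 to 259 FPKM for fibroblast markers. Of the 4 tested of these, 3 fell and Dcn rose. For peritubular and endothelial markers the sums were 104 to 112 and 23.6 to 33.7 FPKM. Acta2 had means of 93.8 and 16.8 FPKM, and the Tagln row also names Sidt2 and Pafah1b2. Myh11, Pecam1 and Vwf were at most 0.07 FPKM in any GC2 library. Spermatogonial markers stood at 29.1 to 34.4 and 46.9 to 59.3 FPKM, and Sertoli cell markers at 20.8 to 22.2 and 35.3 to 36.8 FPKM. Uchl1 made up nearly all of the spermatogonial sum, and Gfra1, Kit, Stra8 and Dmrt1 had group means of at most 0.41 FPKM. The Sertoli cell sum came mostly from Clu, Wt1 and Gata4. Sox9, Amh, Rhox5, Aard and Dhh had group means of at most 0.63 FPKM. Leydig cell, macrophage, erythrocyte and spermatid markers each summed to at most 5.27 FPKM in any GC2 library. The spermatocyte libraries differed in composition between the groups. All 9 tested spermatocyte markers fell, with a summed level of 2385 to 2426 FPKM in control and 244 to 246 FPKM in knockout, and 6 of 6 spermatid markers fell, from 756 to 761 FPKM to 6.17 to 8.49 FPKM. The spermatocyte sum was mostly Ldhc, with means of 1428 FPKM in control and 5.41 FPKM in knockout. Sycp3 and Sycp1 fell far less, from 160 to 124 FPKM and from 69.0 to 58.4 FPKM. Of 9 Sertoli cell markers 8 rose, with summed levels of 676 to 765 FPKM and 2820 to 3022 FPKM. Summed levels in control and knockout were 16.7 to 17.4 and 110 to 114 FPKM for Leydig cell markers (5 of 5 tested rose), 14.9 to 20.2 and 31.2 to 33.6 FPKM for macrophage markers (5 of 6 rose), and 26.8 to 28.2 and 53.0 to 54.2 FPKM for peritubular and endothelial markers (6 of 6 rose). Erythrocyte markers were at 127 to 146 and 245 to 255 FPKM (4 of 4 rose), fibroblast markers at 24.8 to 26.1 and 11.2 to 11.7 FPKM (4 of 5 fell), and spermatogonial markers at 236 to 241 and 260 to 269 FPKM (2 of 7 rose and 4 fell). Over all rows tested in the spermatocyte libraries 40.9% rose and 38.5% fell. No listed marker was at 0 in all 6 spermatocyte libraries. Each spermatocyte result below stands beside these shifts, and their part in it was not tested. In such bulk RNA, fewer cells of a type and less RNA per cell cannot be told apart.

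The median level of cytosolic synthetase transcripts stood above that of mitochondrial ones in every group, while the ranges overlapped. In GC2 control the cytosolic genes ran from 8.31 FPKM (Farsa, the catalytic phenylalanine subunit) to 184.5 FPKM (Nars, the asparagine enzyme), with a median of 34.0 FPKM. The mitochondrial genes ran from 1.01 FPKM (Mars2, methionine) to 12 FPKM (the row of Rars2, arginine, which also names Akirin2), with a median of 2.91 FPKM. In spermatocyte control the cytosolic range was 5.82 FPKM (Cars, cysteine) to 33.1 FPKM (Gars, glycine), with a median of 15.2 FPKM. The mitochondrial range there was 0.51 FPKM (Pars2, proline) to 12 FPKM (Rars2), with a median of 5.58 FPKM. The tables of the GC2 and spermatocyte libraries were made separately, so these levels are given side by side and were not compared.

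**Figure D1:**
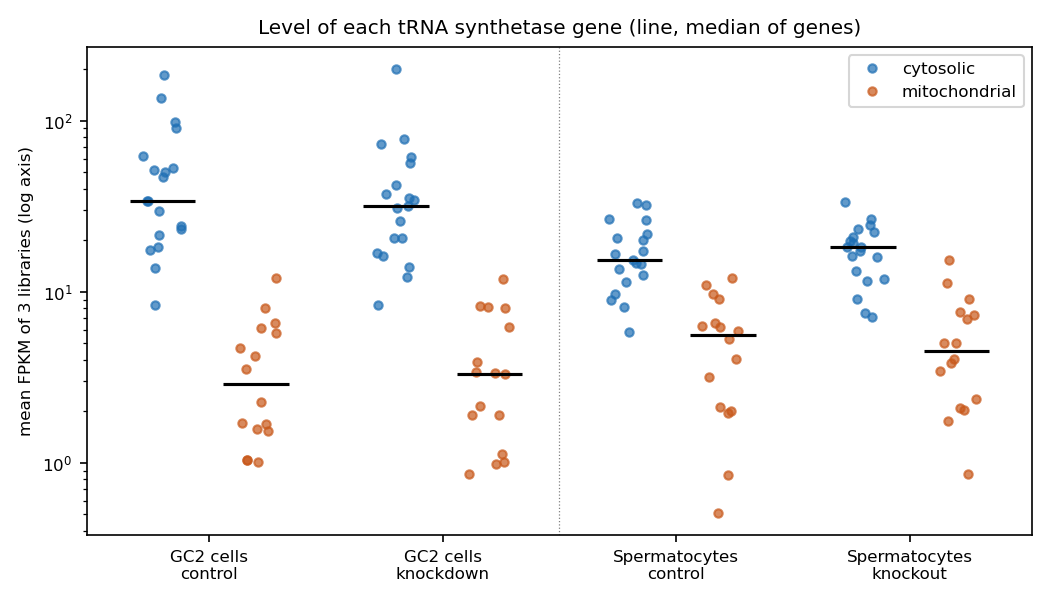
Mean FPKM of 3 libraries (log axis) for each of the 19 cytosolic and 16 mitochondrial synthetase genes in the 4 groups, with the median of the genes as a line. Within each group the cytosolic median lies above the mitochondrial one (34.0 against 2.91 FPKM in GC2 control and 15.2 against 5.58 FPKM in spermatocyte control).

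The first question was how these genes responded to Phb knockdown in GC2 cells. Of the 19 cytosolic genes 11 fell and 1 rose, where 24.5% of all 10791 rows tested were called (13.9% lower and 10.7% higher). Of the 16 mitochondrial genes 0 fell and 3 rose by limma, and 2 (Fars2 and Tars2) were lower at an unadjusted limma p under 0.05. The Tars2 row also names Ecm1 and Rprd2. The median log2 change was -0.32 for the cytosolic genes, 0.01 for the mitochondrial genes and -0.04 for all rows. Together the cytosolic genes went from 996 ± 25.3 FPKM (SD, n = 3) in control to 815 ± 18.2 FPKM in knockdown. The mitochondrial genes summed to 62.7 ± 5.63 FPKM in control and 66.4 ± 6.30 FPKM in knockdown. The cytosolic sum did not overlap between the groups, and the mitochondrial sum did. Control and knockdown libraries did not overlap for 15 of 19 cytosolic and 7 of 16 mitochondrial genes, against 44.9% of all rows.

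The 5 largest falls were in Tars, Gars, Sars, Farsb and Cars. Tars, the threonine enzyme (chr15:11382301-11399665 on GRCm38, minus strand), was 139, 132 and 134 FPKM in control and 77.6, 80.3 and 77.5 FPKM in knockdown. Its log2 change was -0.78 (SE 0.04, limma adjusted p = 0.00033), and all knockdown libraries lay below all controls. Gars, the glycine enzyme for both compartments (chr6:55038007-55079500, plus strand), was 93.0, 89.1 and 88.2 FPKM in control and 62.6, 63.9 and 57.9 FPKM in knockdown. It fell by 0.55 on the same scale (SE 0.05, adjusted p = 0.0023 by limma), again without overlap. Sars, the serine enzyme (chr3:108424865-108445209, minus strand), was 51.9, 53.6 and 49.4 FPKM in control and 36.3, 34.0 and 35.0 FPKM in knockdown. The log2 change of Sars was -0.54 (SE 0.05, limma adjusted p = 0.0021), with the groups well apart. Farsb, the regulatory subunit of the phenylalanine enzyme (chr1:78417975-78488897, minus strand), was 29.7, 29.8 and 29.9 FPKM in control and 20.2, 21.1 and 20.8 FPKM in knockdown, a log2 change of -0.50 (SE 0.04, limma adjusted p = 0.0012). Farsa, the catalytic subunit of the same enzyme, was at 8.31 ± 0.590 FPKM and 8.32 ± 0.269 FPKM (SD, n = 3 each) on a row that also names 1700122E12Rik. The subunits of 1 enzyme thus had different calls, though the Farsa value cannot be given to that gene alone. Cars, the cysteine enzyme, was 24.9, 23.7 and 24.2 FPKM in control and 17.3, 16.6 and 16.5 FPKM in knockdown, with a log2 change of -0.50 (SE 0.05, limma adjusted p = 0.0018).

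The other 6 cytosolic genes that fell were Aars (alanine), Rars (arginine), Iars (isoleucine), Lars (leucine), Yars (tyrosine) and Qars (glutamine), with log2 changes from -0.43 to -0.18. The Qars row also names Qrich1 and Gm37678, its log2 change of -0.18 was the smallest, and its adjusted p was 0.11 (limma) with each library scaled to its median. The Lars call was lost, with adjusted p from 0.0537 to 0.0622 by limma, when control replicate 1 or 2 or knockdown replicate 2 or 3 was left out. Iars, an enzyme of the multisynthetase complex, was 52.1, 50.9 and 46.6 FPKM in control and 38.2, 37.9 and 35.4 FPKM in knockdown (log2 change -0.41, SE 0.06, limma adjusted p = 0.0080), with no overlap.

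A group of cytosolic genes did not pass the test. Nars, the most abundant, was 196, 180 and 178 FPKM in control and 211, 190 and 198 FPKM in knockdown (log2 change 0.12, SE 0.06, limma adjusted p = 0.24), and its groups overlapped. Kars, the lysine enzyme for both compartments, was 64.9, 60.2 and 61.1 FPKM in control and 60.1, 54.1 and 54.8 FPKM in knockdown (log2 change -0.14, SE 0.06, limma adjusted p = 0.16). Every Kars knockdown library lay just below every control. Wars, the tryptophan enzyme and a gene that interferon induces, was 18.1, 18.4 and 18.1 FPKM in control and 16.1, 15.6 and 17.1 FPKM in knockdown (log2 change -0.16, SE 0.05, limma adjusted p = 0.078). Its groups did not overlap, although the difference missed the threshold. Dars (aspartate), Eprs (glutamate and proline), Vars (valine) and Farsa were also not called, with log2 changes from -0.16 to 0.00. The single cytosolic rise was on a row that names Hars, the histidine enzyme, together with Dnd1, at 22.1, 21.7 and 20.9 FPKM in control and 27.9, 24.7 and 25.3 FPKM in knockdown (log2 change 0.26, SE 0.06, limma adjusted p = 0.036). That call was lost in 8 of 13 alternatives, with an adjusted p (limma) of up to 0.11. Left out of the counts, rows that name several genes leave 10 falls and 0 rises among 16 cytosolic genes.

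Grouped by enzyme type, 4 of the 7 multisynthetase complex enzymes fell (Iars, Lars, Qars and Rars, list median -0.18), as did 7 of the 12 free enzymes (median -0.37). Of 8 class I enzymes, which share a Rossmann-fold active site, 6 fell, and of 10 class II enzymes 5 fell and 1 rose. Among 12 cytosolic enzymes described as Atf4 targets 8 fell, with a median log2 change of -0.38. Among the 7 others 3 fell and 1 rose, with a median of -0.14. Of all rows tested 13.9% fell and 10.7% rose. These groupings were made with earlier results of these data known, and differences between them were not tested.

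The C/EBP-ATF response element is the DNA motif that ATF4 binds with a C/EBP partner. Its core, searched as TGATGNAA on both strands, was looked for in the RefSeq promoter windows of GRCm38.p6, which run from 250 bases before to 50 bases after each start. Windows were matched by symbol for 26 of the 35 genes. Members are counted by gene, since a gene such as Aars2 can have several windows. The letters occurred in windows of 5 of 12 cytosolic genes and 0 of 14 mitochondrial genes, beside 3.97% of all 32851 windows. These 5 windows are shown because they hold a match, and all 5 genes fell in the GC2 knockdown. They are written 5′ to 3′ along the gene, with the match in capitals; TTGCATCA and TTTCATCA are matches on the opposite strand.
Tars, chr15:11399609-11399908, - strand: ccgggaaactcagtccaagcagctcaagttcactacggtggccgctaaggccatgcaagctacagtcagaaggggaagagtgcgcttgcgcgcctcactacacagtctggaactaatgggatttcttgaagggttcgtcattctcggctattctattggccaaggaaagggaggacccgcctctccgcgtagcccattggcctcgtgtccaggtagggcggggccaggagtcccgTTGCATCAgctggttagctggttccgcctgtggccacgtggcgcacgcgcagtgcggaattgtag
Gars, chr6:55037751-55038050, + strand: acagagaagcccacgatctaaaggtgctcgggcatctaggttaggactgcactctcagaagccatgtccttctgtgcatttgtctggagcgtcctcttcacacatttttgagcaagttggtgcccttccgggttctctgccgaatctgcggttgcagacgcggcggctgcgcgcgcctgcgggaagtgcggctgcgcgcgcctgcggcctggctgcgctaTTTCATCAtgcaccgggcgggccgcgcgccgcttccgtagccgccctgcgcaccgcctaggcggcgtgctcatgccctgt
Aars, chr8:111033592-111033891, + strand: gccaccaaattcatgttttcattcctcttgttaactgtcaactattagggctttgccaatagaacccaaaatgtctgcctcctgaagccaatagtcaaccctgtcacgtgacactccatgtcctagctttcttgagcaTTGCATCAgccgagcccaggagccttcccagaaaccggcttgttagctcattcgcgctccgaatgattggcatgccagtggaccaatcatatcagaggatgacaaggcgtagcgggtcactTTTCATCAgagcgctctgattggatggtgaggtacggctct
Iars, chr13:49681880-49682179, + strand: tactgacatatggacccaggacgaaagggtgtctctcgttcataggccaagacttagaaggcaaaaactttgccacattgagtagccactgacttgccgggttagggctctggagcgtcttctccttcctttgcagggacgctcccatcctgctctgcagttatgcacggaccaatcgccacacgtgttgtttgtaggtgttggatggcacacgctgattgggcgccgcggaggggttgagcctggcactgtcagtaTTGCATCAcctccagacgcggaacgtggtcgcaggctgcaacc
Yars, chr4:129189653-129189952, + strand: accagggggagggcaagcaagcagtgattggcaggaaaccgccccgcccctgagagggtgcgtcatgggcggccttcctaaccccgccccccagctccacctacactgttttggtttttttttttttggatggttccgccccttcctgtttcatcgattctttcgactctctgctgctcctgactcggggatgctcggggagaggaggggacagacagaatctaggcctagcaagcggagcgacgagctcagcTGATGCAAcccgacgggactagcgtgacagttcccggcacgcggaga
The match began 15 bases before the start in Tars and 30 before it in Gars. Those of Iars and Yars began 7 and 3 bases into the transcribed side, and Aars had 2, from 112 bases before and 9 bases after the start. Sars and Farsb fell by similar amounts to Gars with no match in their windows, and Qars, on a shared row, also fell without one. Dars, Eprs, Farsa and Kars had no match and were not called in GC2 cells. In spermatocytes Tars, Iars and Yars rose, Aars (on a row with Exosc6) fell and Gars was not called. Bases just after the start were found in sense in GENCODE transcripts for 22 of 26 genes, not for Dars, Kars, Sars or Sars2. A link between match and change was not tested. A match is a description of letters, not of binding.

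**Figure D2:**
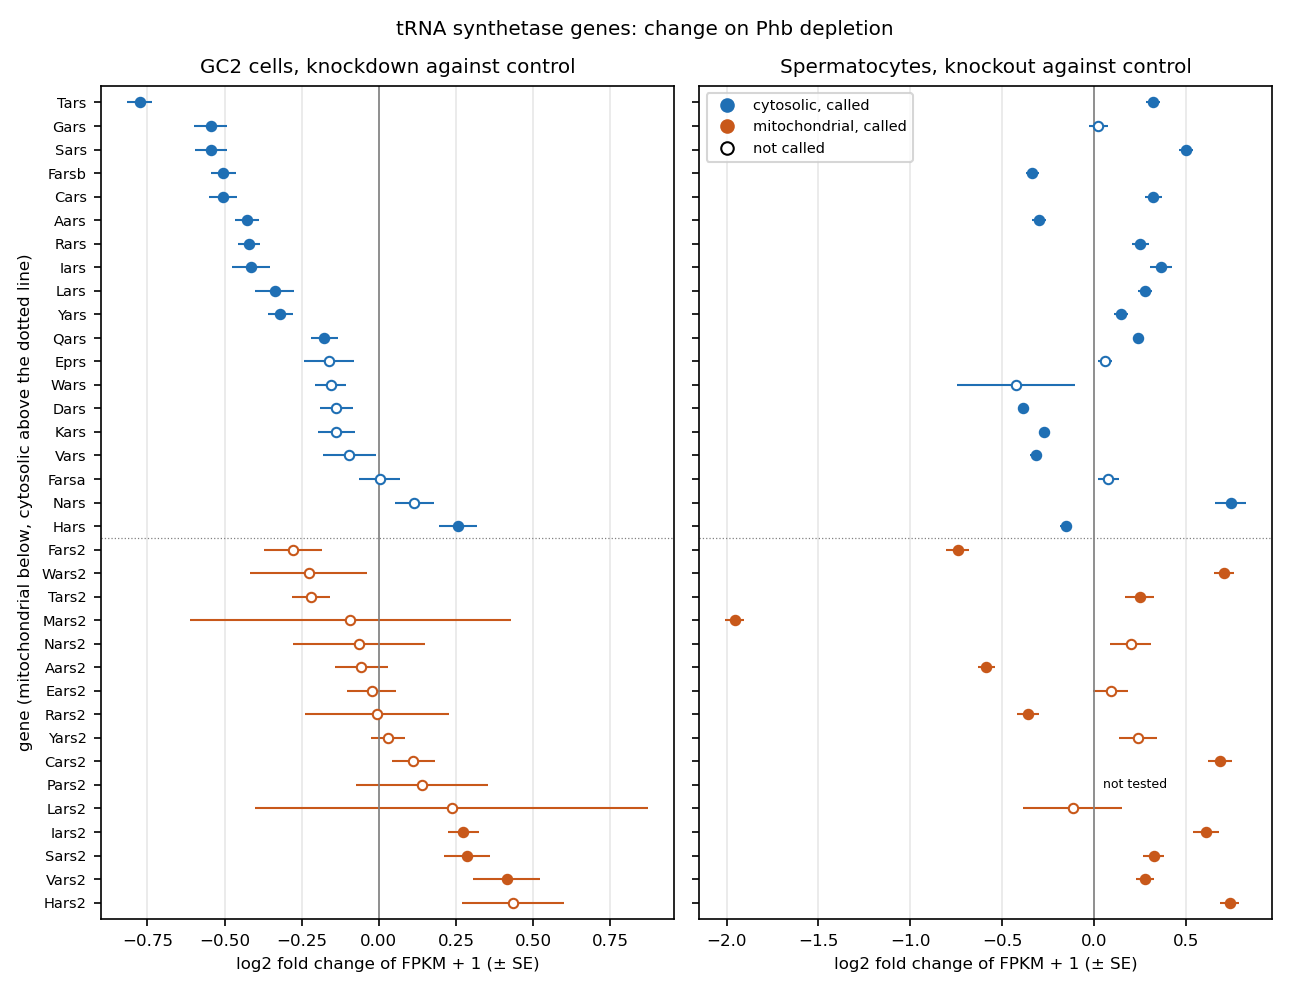
Log2 fold change of FPKM + 1 (± SE, n = 3 libraries per group) for each synthetase gene, cytosolic above and mitochondrial below the dotted line; filled points were called at a limma adjusted p under 0.05. In GC2 cells 11 filled cytosolic points lie left of 0 and 1 right of it, and 3 filled mitochondrial points lie right; in spermatocytes filled points of both compartments lie on both sides.

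The mitochondrial genes that rose in GC2 cells were Vars2, Sars2 and Iars2. Vars2, the mitochondrial valine enzyme, was 2.01, 2.55 and 2.23 FPKM in control and 2.88, 3.79 and 3.39 FPKM in knockdown (log2 change 0.41, SE 0.11, limma adjusted p = 0.046). Sars2, the mitochondrial serine enzyme, was 1.49, 1.55 and 1.69 FPKM in control and 1.91, 2.23 and 2.28 FPKM in knockdown (log2 change 0.28, SE 0.07, limma adjusted p = 0.046). Iars2, the mitochondrial isoleucine enzyme, was 6.62, 6.30 and 6.77 FPKM in control and 8.36, 8.06 and 8.0 FPKM in knockdown (log2 change 0.27, SE 0.05, limma adjusted p = 0.016). None of the 3 overlapped between groups. None of these calls held under every alternative: Vars2 lost its call in 6 of 13, Sars2 in 8 of 13 and Iars2 in 2 of 13, with adjusted p (limma) up to 0.12, 0.41 and 0.054.

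The other 13 mitochondrial genes were not called in GC2 cells, with log2 changes from -0.28 (Fars2) to 0.43 (Hars2). Some of them were low or uneven among replicates. Lars2 was 10.1, 1.96 and 11.9 FPKM in control and 12.2, 6.08 and 6.42 FPKM in knockdown, and is named here after its values were seen. Mars2 was 1.54 and 1.5 FPKM in control replicates 1 and 2 and 1.38 and 1.20 FPKM in knockdown replicates 2 and 3, and was listed at 0 in the remaining library of each group.

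The balance of the compartments can be read within pairs that charge the same amino acid. For 12 such pairs, from Aars and Aars2 to Yars and Yars2, the log2 ratio of cytosolic to mitochondrial FPKM + 1 was taken in each library. In GC2 cells the mean log2 ratio was lower in knockdown in 10 of 12 pairs, and the 2 groups did not overlap in 7 of these pairs, lower in each. Tars and Tars2 are among these 7, and the Tars2 row also names Ecm1 and Rprd2. The Hars and Rars2 rows, in pairs whose groups overlapped, are shared with Dnd1 and Akirin2. The phenylalanine enzyme was kept out of the pairs because its cytosolic form has separate subunits. In GC2 cells the log2 ratio of Farsa to Fars2 was 0.84 in control and 1.12 in knockdown, higher without overlap, on the Farsa row shared with 1700122E12Rik. That of Farsb to Fars2 was 2.56 and 2.34, lower without overlap. The largest shift without overlap was in Sars and Sars2, at 4.41, 4.42 and 4.23 in control and 3.68, 3.44 and 3.46 in knockdown. In spermatocytes the ratio was lower in 6 of 12 pairs, and the groups stood apart in 4 pairs with a lower and 4 with a higher ratio. Hars and Hars2 gave 1.56, 1.73 and 1.61 in control and 0.77, 0.74 and 0.70 in knockout, while Rars and Rars2 gave 0.66, 0.79 and 0.76 in control and 1.52, 1.19 and 1.33 in knockout. Among the 12 pairs, shifts without overlap went one way in GC2 cells and both ways in spermatocytes. Single rows were without overlap in 44.9% of cases in GC2 cells and 81.8% in spermatocytes. No such share was worked out for ratios.

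**Figure D3:**
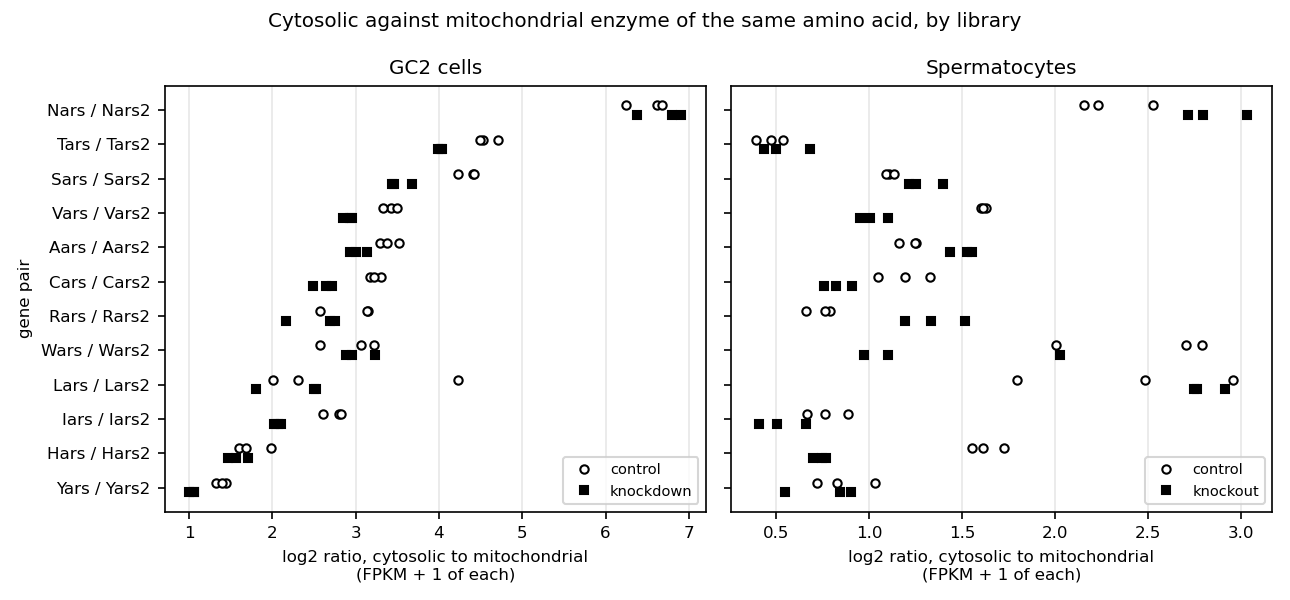
Log2 ratio of cytosolic to mitochondrial FPKM + 1 in each library for 12 enzyme pairs (phenylalanine left out), with controls as open circles and Phb-depleted libraries as filled squares. In GC2 cells the squares lie wholly left of the circles in 7 pairs; in spermatocytes they lie left in 4 and right in 4.

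The second question was how the genes differed between control and Phb knockout spermatocytes. Of 19 cytosolic genes 9 rose and 6 fell, where 79.4% of all 15957 rows were called (40.9% higher and 38.5% lower). Of 15 mitochondrial genes tested 7 rose and 4 fell, while Pars2 stayed under the minimum level. Wars2, among the 7, passed the minimum only through the knockout libraries. Both sets of counts lie near those of all rows. The median log2 change was 0.08 for the cytosolic genes, 0.24 for the mitochondrial genes and 0.05 for all rows. Summed levels were 329 ± 3.63 FPKM in control and 337 ± 4.85 FPKM in knockout for the cytosolic genes, and 86.6 ± 0.955 FPKM and 87.9 ± 2.64 FPKM for the mitochondrial genes (SD, n = 3). Control and knockout did not overlap for 15 of 19 cytosolic and 12 of 15 mitochondrial genes, against 81.8% of all rows. Rows encoded by mitochondrial DNA held 12.2% to 13.6% of summed FPKM in control libraries and 17.1% to 19.5% in knockout libraries, and scaling to the median of each library moved the median change of all rows from 0.05 to 0.20. Under that scaling 12 cytosolic genes rose and 5 fell, and 9 mitochondrial genes rose and 4 fell.

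Nars had the largest rise among cytosolic genes. It was 12.9, 13.3 and 14.3 FPKM in control and 21.6, 26.4 and 22.0 FPKM in knockout (log2 change 0.74, SE 0.08, limma adjusted p = 0.00026), with every knockout library above every control. Sars was 12.7, 12.3 and 12.7 FPKM in control and 19.0, 18.2 and 17.5 FPKM in knockout (log2 change 0.50, SE 0.04, limma adjusted p = 3.3e-05). Iars was 17.8, 15.8 and 18.2 FPKM in control and 23.3, 22.0 and 22.2 FPKM in knockout (log2 change 0.36, SE 0.06, limma adjusted p = 0.0014). Neither gene overlapped between groups, and both had fallen in the GC2 knockdown. Cars was 5.53, 6.06 and 5.88 FPKM in control and 7.80, 7.21 and 7.61 FPKM in knockout (log2 change 0.32, SE 0.05, limma adjusted p = 0.0010). Tars was 9.12, 8.66 and 9.19 FPKM in control and 11.5, 11.1 and 11.8 FPKM in knockout (log2 change 0.32, SE 0.04, limma adjusted p = 0.00035). These 2 genes were likewise separate between groups and opposite to GC2. The other cytosolic rises, in Lars, Rars, Qars and Yars, were from 0.14 to 0.28 in log2 change.

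Dars, the aspartate enzyme of the multisynthetase complex, had the largest cytosolic fall in spermatocytes. It was 26.7, 26.3 and 25.9 FPKM in control and 19.7, 19.7 and 20.4 FPKM in knockout (log2 change -0.38, SE 0.03, limma adjusted p = 3.1e-05). Kars was 32.4, 32.2 and 32.0 FPKM in control and 26.2, 27.5 and 25.9 FPKM in knockout (log2 change -0.27, SE 0.03, limma adjusted p = 0.00023). Both were well separated. Farsb, Vars, Aars and Hars also fell, with log2 changes from -0.34 to -0.15. The Aars row also names Exosc6, and the small fall of Hars had the opposite sign, at 0.03 (limma adjusted p = 0.46), with libraries scaled to their medians. Gars was 34.2, 31.8 and 33.4 FPKM in control and 31.4, 34.8 and 34.9 FPKM in knockout, overlapped and was not called (log2 change 0.02, SE 0.05, limma adjusted p = 0.69), but passed the test, higher in knockout by 0.21, under median scaling. Wars was uneven, at 6.43, 11.7 and 11.1 FPKM in control and 5.25, 10.8 and 5.42 FPKM in knockout (log2 change -0.42, SE 0.32, limma adjusted p = 0.27), and without knockout replicate 2 the change was -0.72 (limma adjusted p = 0.048). Eprs and Farsa were not called, at log2 changes of 0.06 and 0.08. By enzyme type, 6 of 8 class I enzymes rose and 1 fell, and 3 of 10 class II enzymes rose and 5 fell. Of the 7 multisynthetase complex enzymes 4 rose and 2 fell, and of the 12 free enzymes 5 rose and 4 fell. The 12 enzymes described as Atf4 targets held 7 rises and 2 falls (median 0.21), and the 7 others 2 rises and 4 falls (median -0.15). Of all rows tested 40.9% rose and 38.5% fell. These groupings were made with earlier results of these data known, and differences between them were not tested.

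**Figure D4:**
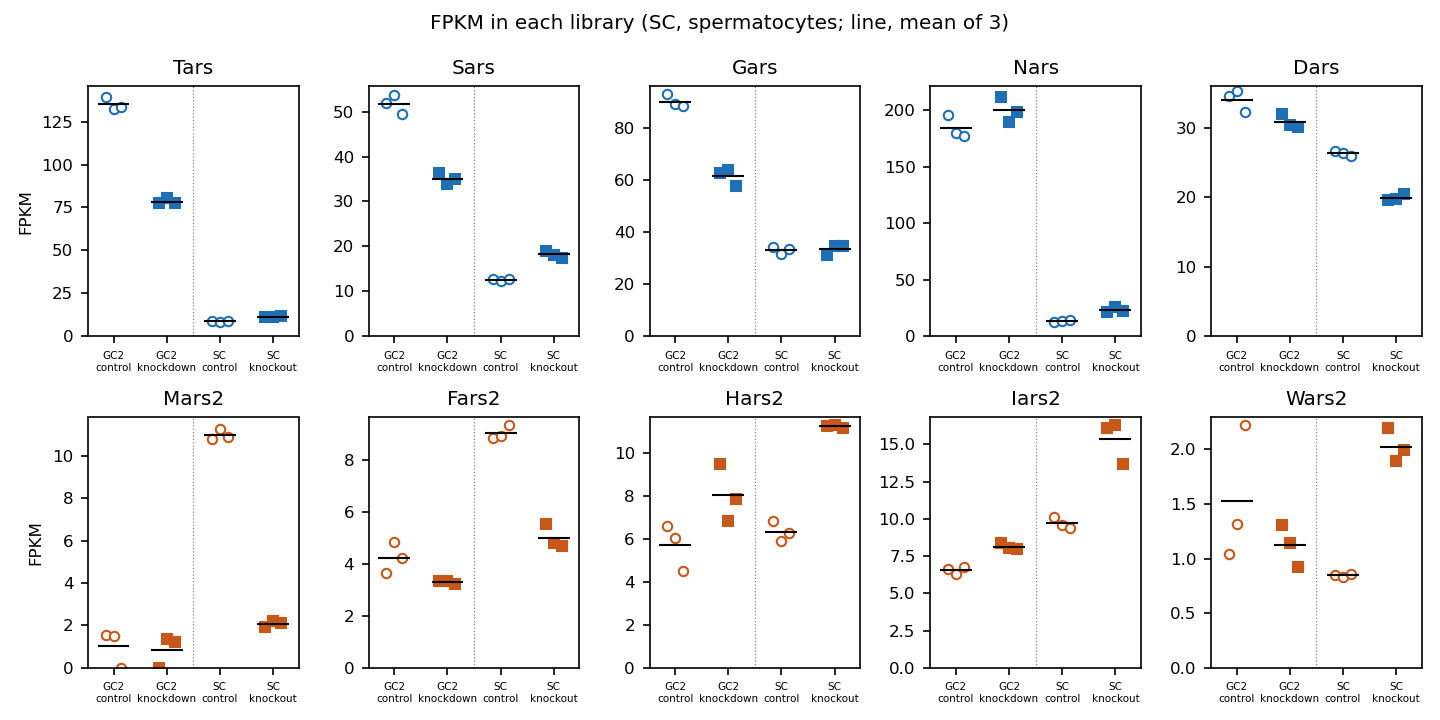
FPKM in each library for 5 cytosolic (upper row) and 5 mitochondrial (lower row) synthetase genes, with control as open circles, Phb-depleted libraries as filled squares and group means as lines. Tars and Sars are lower in GC2 knockdown and higher in spermatocyte knockout, and Mars2 is near 11 FPKM in spermatocyte control and near 2 FPKM in knockout.

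Mars2, the mitochondrial methionine enzyme (chr1:55237177-55248470, plus strand), changed more than any other synthetase gene. In spermatocytes it was 10.8, 11.2 and 10.9 FPKM in control and 1.91, 2.20 and 2.14 FPKM in knockout (log2 change -1.96, SE 0.05, limma adjusted p = 2.8e-07). All knockout libraries lay far below all controls. Its neighbour Boll, a germ cell RNA-binding protein gene on the opposite strand (chr1:55248658-55363469), ends 187 bases from the end of Mars2 and is named here after its values were seen. Boll was 26.9, 25.4 and 25.6 FPKM in control and 3.99, 3.40 and 3.59 FPKM in knockout (log2 change -2.53, SE 0.06, limma adjusted p = 1.5e-07). Both genes of the locus were lower in knockout. The sources used here do not say whether counting used strand, so reads that run past either gene end could not be assigned with certainty, and their part in the Mars2 value was not tested.

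Other mitochondrial genes fell or rose by less. Fars2, the mitochondrial phenylalanine enzyme, was 8.85, 8.92 and 9.32 FPKM in control and 5.52, 4.82 and 4.67 FPKM in knockout (log2 change -0.74, SE 0.06, limma adjusted p = 6.2e-05). Aars2 and Rars2 fell too, by log2 changes of -0.59 and -0.36. The falls of Mars2, Fars2, Aars2 and Rars2 held under all 13 alternatives.

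Hars2, the mitochondrial histidine enzyme, led the rises. It was 6.82, 5.91 and 6.29 FPKM in control and 11.3, 11.3 and 11.2 FPKM in knockout (log2 change 0.74, SE 0.05, limma adjusted p = 2.6e-05). Hars and Hars2 lie head to head on chromosome 18 and their annotated starts overlap by 198 bases. Wars2, the mitochondrial tryptophan enzyme, was 0.85, 0.83 and 0.86 FPKM in control and 2.19, 1.89 and 1.99 FPKM in knockout (log2 change 0.71, SE 0.05, limma adjusted p = 4.0e-05). Hars2 and Wars2 were without overlap. Wars2 reached 1 FPKM only in the knockout libraries, so it passed the minimum only through the group where it was high. Its rise is therefore a description only, though the call was kept with no minimum. Cars2, Iars2, Sars2, Vars2 and Tars2 also rose, by log2 changes of 0.69, 0.61, 0.32, 0.28 and 0.25. Iars2, Sars2 and Vars2 had risen in GC2 cells as well. The Tars2 call was lost, with adjusted p (limma) from 0.078 to 0.081, when control replicate 1 or 2 or knockout replicate 2 or 3 was left out. Ears2, Lars2, Nars2 and Yars2 were not called, with log2 changes from -0.12 to 0.24, and Pars2 was 0.28, 0.44 and 0.81 FPKM in control and 0.69, 1.62 and 0.27 FPKM in knockout.

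Whether a gene changed differently in the 2 kinds of sample was tested directly, for the 28 synthetase genes on rows of 1 gene tested in both. Rows were matched by gene name, and the transcripts they join can differ between the tables. In GC2 cells and spermatocytes there were 1 and 7 for Tars, 2 and 9 for Lars and 2 and 13 for Nars. Sars had 5 and 4, and Rars 5 and 5. The part of this in the differences was not tested. The change in spermatocytes exceeded that in GC2 cells for 10 of 15 cytosolic genes and was below it for 1, Dars, where 60.8% of 8536 rows were called (38.2% higher and 22.6% lower). For 13 mitochondrial genes it was above for 3 and below for 3. Wars2, among those above, passed the spermatocyte minimum only through the knockout libraries. The median difference was 0.57 for cytosolic genes, 0.11 for mitochondrial genes and 0.23 for all rows. The largest differences were in Mars2 (-1.86, SE 0.55, limma adjusted p = 0.015), Tars (1.10, SE 0.05, limma adjusted p = 1.0e-07) and Sars (1.04, SE 0.06, limma adjusted p = 3.8e-07). That of Mars2 rests on GC2 values of which 2 were listed at 0, and it had a limma adjusted p of 0.30 with a pseudocount of 0.1. On these rows of 1 gene, 7 of 15 cytosolic and 0 of 13 mitochondrial genes fell in GC2 cells and rose in spermatocytes by limma, against 7.15% of the 8536 rows. The cytosolic genes were Cars, Iars, Lars, Rars, Sars, Tars and Yars, of which Lars lost its GC2 call in 4 of 13 alternatives. Qars had the same calls, but its GC2 row is shared and lost its call in 10 of 13 alternatives. Hars was called the other way round, higher in GC2 cells on a row shared with Dnd1 and lower in spermatocytes. Those Hars calls were lost in 8 and 3 of 13 alternatives. Aars and Farsb fell in both, and no mitochondrial gene was called in opposite directions.

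Genes of the surrounding pathway were read from lists made with earlier results of these data known. In the Atf4 arm of the integrated stress response 11 of 16 genes fell in GC2 cells, with a list median of -0.79, and 13 of 15 rose and 1 fell in spermatocytes, with a median of 1.00. Atf4 itself was 274 ± 6.18 FPKM in GC2 control and 170 ± 2.33 FPKM in knockdown (log2 change -0.69, SE 0.03, limma adjusted p = 0.00032). In spermatocytes Atf4 was 33.0 ± 1.04 FPKM in control and 68.1 ± 14.7 FPKM in knockout (SD, n = 3; log2 change 1.00, SE 0.14, limma adjusted p = 0.00080). Sesn2, an inhibitor of mTORC1 signalling, and Asns, asparagine synthetase, fell in GC2 cells by log2 changes of -1.80 and -0.88. In spermatocytes Sesn2 and Asns rose by 1.16 and 1.72. The shares of all rows were 13.9% lower in GC2 cells and 40.9% higher in spermatocytes. Atf5, Ddit3, Psat1, Shmt2 and Eif2ak4 were not called in GC2 cells; in spermatocytes Ddit3 fell (log2 change -0.39), Psph was not called and Slc7a11 was not tested.

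Interferon signalling genes, listed because interferon induces Wars, fell in 6 of 7 cases in GC2 cells (list median -2.35) and rose in 6 of 6 tested in spermatocytes (median 0.72). Ifit1 was 80.5 ± 0.912 FPKM in GC2 control and 2.53 ± 0.193 FPKM in knockdown (SD, n = 3). Wars itself passed the test in neither. Of the cytosolic elongation factors 3 of 5 fell in GC2 cells, among them Eef1g (log2 change -0.43), and 4 of 5 rose in spermatocytes, among them Eef1b2 (0.52). The multisynthetase scaffold protein Aimp1 fell in both, by log2 changes of -0.30 and -0.55. Of the other scaffold genes Aimp2, on a row with Ankrd61, fell and Eef1e1 rose in spermatocytes. Neither was called in GC2 cells. Beside these counts, 13.9% of all rows fell in GC2 cells, and 40.9% rose and 38.5% fell in spermatocytes.

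Mitochondrial partners of the synthetases, tRNA editing and export genes and synthetases outside the 35 are read against the same shares of all rows. These shares were 13.9% lower in GC2 cells and 40.9% higher and 38.5% lower in spermatocytes. Of 10 mitochondrial translation factors 3 fell in GC2 cells, among them Guf1 (log2 change -0.37) and Tufm, the elongation factor that delivers charged tRNA to the mitochondrial ribosome (log2 change -0.21), and 4 rose and 2 fell in spermatocytes. Of 13 genes tested for mitochondrial tRNA processing and modification 2 fell in GC2 cells (Elac2, which trims tRNA 3′ ends, and Trmu), and of 14 in spermatocytes 6 rose and 4 fell. Hsd17b10, a subunit of mitochondrial RNase P, rose there by a log2 change of 1.12. Of 4 genes for mitochondrial tRNA amidation and formylation 1 fell in GC2 cells (the row of Mtfmt), and in spermatocytes Mtfmt rose and Qrsl1 fell. Of 5 tRNA editing and export genes 1 fell in GC2 cells, on a row of Aarsd1 with other genes, and 1 rose and 3 fell in spermatocytes. Outside the 35, the row of the methionine synthetase gene Mars fell in GC2 cells (log2 change -0.31, shared with Gm4189) and Mars rose in spermatocytes (0.27). The row of Tarsl2 with Tm2d3 was not called in GC2 cells and rose in spermatocytes (0.84).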

How the data were processed

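RNA was read in 12 libraries, 3 per group, made with a directional kit per the labels' protocols. The authors deposited FPKM per gene row; HISAT2 2.1.0, DESeq, GRCm38 and mm10 are named, without role, per the submitters' processing notes. The sources used here do not give the quantifier, its use of strand or the depth, so no counting intervals are given. FPKM depends on the composition of each library. The GC2 tables hold 25911 rows (1200 without a gene name, left out) and those of spermatocytes hold 36987 (164 without). Samples were grouped by title.

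Rows with at least 1 FPKM in 3 of the 6 libraries compared were tested by limma 3.58.1 (R 4.3.3) with a variance trend on log2(FPKM + 1), a scale that understates changes of low genes. GC2 cells and spermatocytes were fitted apart, and the difference of their changes over all 12 libraries. A row was called at a two-sided Benjamini-Hochberg adjusted p under 0.05 over all rows, and scripts were tested on simulated data. Of the 35 genes 35 passed the minimum in GC2 cells and 34 in spermatocytes. In GC2 cells 5 of the rows used name further genes, and in spermatocytes 1.

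The genes and all lists were chosen with earlier results of these data known. Per-library values are given for Gars, Kars and Wars, for the called genes with the 4 largest changes per comparison and compartment, for the 4 genes most changed in opposite directions and for the 3 largest differences. Coordinates are from GENCODE M21. Alternatives were a pseudocount of 0.1, no minimum, quantile normalization, median scaling, mitochondrially encoded rows left out, rows of a gene summed, each library left out and a replicate block. Within groups, libraries correlated at 0.924 to 0.937 (GC2) and 0.984 to 0.988 (spermatocytes); between groups at 0.892 to 0.901 and 0.622 to 0.626.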

Additional observations from a re-analysis of the deposited data

Results flagged for a closer look

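For 17 of the 28 synthetase genes tested (60.7%) the change in spermatocytes differed from that in GC2 cells by the limma interaction test across all 12 libraries, a share close to the 60.8% of all 8536 rows. The difference, spermatocytes minus GC2 on the log2(FPKM + 1) scale, was above 0 for the cytosolic genes Tars (1.10), Sars (1.04), Cars (0.83), Iars (0.78), Rars (0.67), Nars (0.63), Lars (0.62), Gars (0.57), Yars (0.46) and Farsb (0.17). It was below 0 for the cytosolic gene Dars (-0.25). Among mitochondrial genes it was above 0 for Wars2 (0.94), Cars2 (0.57) and Iars2 (0.34) and below 0 for Mars2 (-1.86), Aars2 (-0.53) and Fars2 (-0.46). Wars2 passed the spermatocyte minimum only through the knockout libraries, and 4 GC2 rows carry its name. The knockout spermatocyte libraries also differed from their controls in the cell type markers given above, and the part of that in these differences was not tested.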

How the results depend on the processing

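Of the 11 cytosolic falls in GC2 cells 9 held under all 13 alternatives (all but Lars and Qars), and 9 to 10 genes fell when a library was left out; in spermatocytes all 9 cytosolic rises and 5 of 6 falls held. With no minimum the GC2 counts were 0 cytosolic rises (against 1) and 1 mitochondrial rise (against 3), and the difference fit called 9660 rows, 5133 higher and 4527 lower, of the larger set tested. Quantile normalization gave 2 cytosolic rises in GC2 cells, rows summed gave 1 mitochondrial fall, and leaving out rows of several genes, chosen after seeing the data, gave 0 cytosolic rises. Median scaling gave 0 cytosolic genes with a lower difference (against 1), and a value of 0.0275 for Hars in spermatocytes, opposite in sign; the cause was not tested. Quantile normalization moved the share of higher calls from 43.5% to 53.6% in GC2 cells and from 51.6% to 62.0% in spermatocytes, where it moved the median of all rows to 0.28. With a library left out, GC2 cells gave 0 cytosolic rises, 0 to 3 mitochondrial rises, 0 to 2 mitochondrial falls, 1789 to 2258 calls and 744 to 962 rises over all rows (against 1153; 750 without knockdown replicate 2 and 744 without knockdown replicate 3), and the difference fit gave 1 to 2 lower cytosolic genes. Replicate numbers were not taken to pair the libraries: same-numbered libraries deviated together at r = 0.124, 0.078 and 0.061 in GC2 cells, where each correlated best with its own number, and at 0.007, -0.054 and 0.007 in spermatocytes. With a replicate block GC2 cells had 0 cytosolic and 1 mitochondrial rise, 1985 calls over all rows, and 2 cytosolic genes had a lower difference. Depth is unknown, so no counting limit could be set for the low mitochondrial genes.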
